A study of Mus musculus with 12 samples.

Results

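The imprinted genes Igf2, H19, Ascl2, Tssc4, Kcnq1, Kcnq1ot1, Cdkn1c, Phlda2 and Nap1l4 lie in the Igf2-H19 and Kcnq1 domains at the distal end of mouse chromosome 7. They were followed across 6 Smchd1 null and 6 Smchd1 wildtype samples. A probe was taken as a member when its target name in the deposited table was 1 of these 9 symbols, whether or not it was detected. The table writes them in capitals: IGF2, H19, CDKN1C, KCNQ1, PHLDA2, ASCL2, TSSC4 and NAP1L4. This gave 14 probes of 8 genes, out of 45281 probes with 30774 symbols, and no probe carried the name Kcnq1ot1. A probe under that gene's older symbol, Tssc8, is described beside the members. In null samples both copies of Smchd1 carried a gene-trap allele. The Smchd1 protein, related to the structural maintenance of chromosomes family, takes part in X inactivation and in silencing some imprinted genes. Samples of both genotypes were premalignant pre-B cells of C57BL/6 mice with the Eµ-Myc transgene, in which an immunoglobulin enhancer drives Myc in B-lineage cells. The cells were taken fresh from mice and sorted, and neither the ages nor the sorting gate are given in the sources used here. Each sample was hybridised to 1 Illumina MouseWG-6 V2 array, and each of 2 BeadChips carried 3 null and 3 wildtype arrays.

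Imprinted genes are expressed mainly from the allele of 1 parent. In the Igf2-H19 domain a methylated control region lets the paternal allele make Igf2, a fetal growth factor, and the maternal allele make H19, a long noncoding RNA. In the neighbouring Kcnq1 domain the paternal allele makes the long noncoding RNA Kcnq1ot1, and the maternal allele expresses Cdkn1c, an inhibitor of cyclin-dependent kinases, together with Phlda2, Ascl2 and Kcnq1. The arrays sum both alleles, so no value here tells them apart.

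Levels are log2 intensities after background correction against the negative control probes and quantile normalization, changes are null minus wildtype on that scale, and a probe was detected on an array when its detection p was under 0.05. Smchd1 itself was at 4.63 to 5.65 on null arrays, against 9.30 to 9.64 on wildtype arrays, so it followed the labels. Between 15396 and 16587 probes were detected per array. The arrays null 3, null 4 and null 5 stood apart from the rest. They had 90, 80 and 67 probes more than 2 above every other array, and the other 9 arrays had 0 to 3 such probes. Results of the tested members and the Tssc8 probe are therefore given with and without these arrays. Changes of other genes and lists are over all 12 arrays. B-lineage markers were present throughout: 9 to 12 of the 12 on the array were detected on each null array and 9 to 11 on each wildtype array. Since the labels leave unstated if every sample is a separate animal, p-values here speak for the spread among the 12 arrays only.

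None of the members passed the test. Of the 14 member probes, 6 probes of 5 genes were detected on at least 3 of the 12 arrays and were tested: 1 each of Igf2, H19, Cdkn1c and Nap1l4, and both of Tssc4. With limma, 0 of these 6 had an adjusted p under 0.05, in a comparison that called 215 of 17607 probes (1.22%), 94 higher in null (0.534%) and 121 lower (0.687%). The unadjusted p was under 0.05 for 1 of the 6, Cdkn1c, and for 18.1% of all tested probes. Without the detection filter 101 of 45281 probes (0.223%) were called, and 0 of the 14 member probes. The members nonetheless differed in how they behaved across arrays. Igf2 and H19 were near background on 11 arrays and near the top of the intensity range on null 4, Cdkn1c was higher on 5 of 6 null arrays, and Tssc4 and Nap1l4 overlapped between the genotypes. Kcnq1, Phlda2 and Ascl2 were detected on no array. In these bulk samples, a change in the share of a cell type and a change in RNA per cell cannot be told apart.

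**Figure D1:**
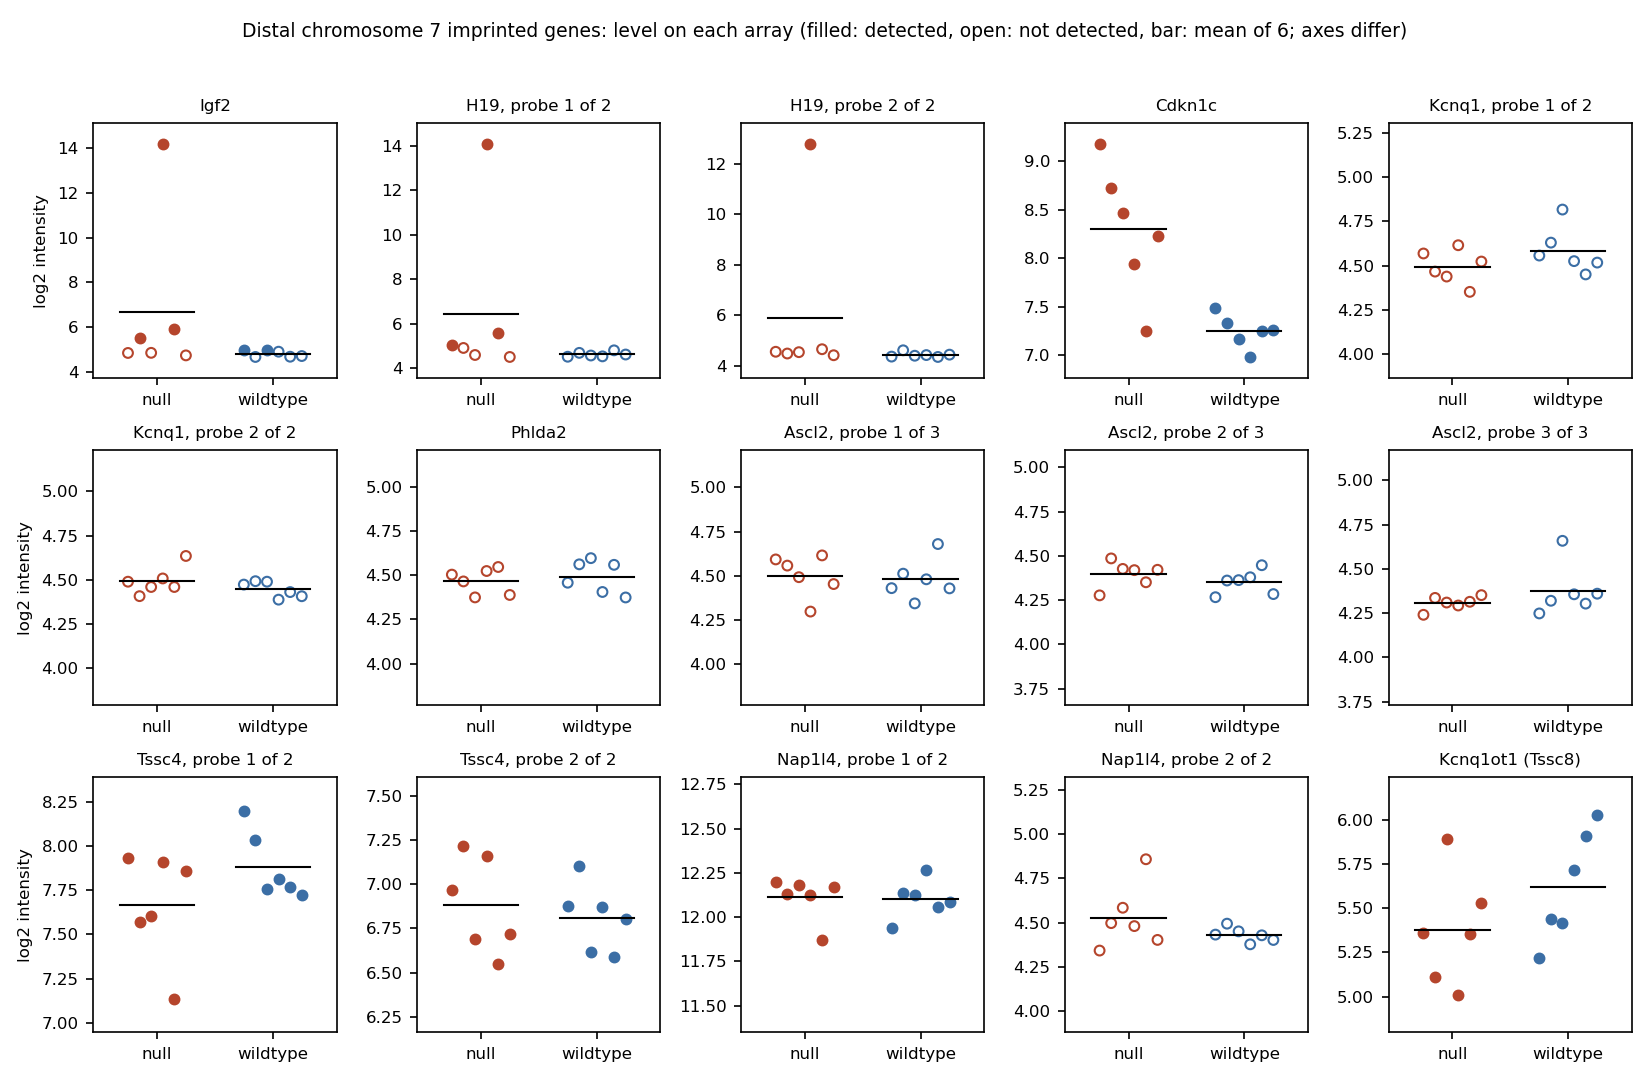
Log2 intensity of each member probe, and of the Tssc8 probe of Kcnq1ot1, on the 6 null arrays (red, left) and the 6 wildtype arrays (blue, right), with filled points where the probe was detected and a bar at the mean of 6. For Igf2 and both H19 probes 1 null array reads 12.76 to 14.15 and all others read under 6, Cdkn1c has 5 null points above all wildtype points, and the axes differ between panels.

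Igf2 encodes insulin-like growth factor 2, a ligand of the IGF1 receptor, and H19 is the RNA made from the other parental allele of the same domain. Both genes also carry microRNAs inside their transcribed spans, shown here as further products of the loci that stood out on null 4. The miRNAs themselves were not measured by the member probes. Mature sequences are those of RefSeq for GRCm38.p6, all on the minus strand of chromosome 7, with the seed (bases 2 to 8) in capitals. The H19 pair lies at chr7:142577112-142577133 and chr7:142577078-142577099, and the Igf2 pair at chr7:142654968-142654989 and chr7:142654932-142654952, in the order listed. No 2 of the seeds are the same.
mmu-miR-675-5p: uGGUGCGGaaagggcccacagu
mmu-miR-675-3p: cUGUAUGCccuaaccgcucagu
mmu-miR-483-5p: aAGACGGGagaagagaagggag
mmu-miR-483-3p: uCACUCCUccccucccgucuu

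Igf2 is transcribed from several promoters, and RefSeq gives 4 start windows for it (250 bases before to 50 after each start). A pair of them is printed with CG dinucleotides in capitals. DNA methylation at CG sites of the control region is the mark that sets imprinting in this domain. The printed windows are starts of Igf2, and that control region is not printed. The window at chr7:142657447-142657746, minus strand, holds 7 CG, a count that 52.1% of 32851 promoter windows reach. The window at chr7:142658755-142659054, minus strand, holds 24 CG, a count that 20.0% of windows reach. The other Igf2 windows hold 14 and 2 CG, and methylation was not measured in this series.
Igf2 promoter window with 7 CG: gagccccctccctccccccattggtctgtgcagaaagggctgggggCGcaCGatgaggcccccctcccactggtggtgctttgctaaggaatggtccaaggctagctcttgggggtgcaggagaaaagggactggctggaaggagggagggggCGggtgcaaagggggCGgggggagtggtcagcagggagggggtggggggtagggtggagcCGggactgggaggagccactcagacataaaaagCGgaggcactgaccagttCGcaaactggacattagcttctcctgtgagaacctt
Igf2 promoter window with 24 CG: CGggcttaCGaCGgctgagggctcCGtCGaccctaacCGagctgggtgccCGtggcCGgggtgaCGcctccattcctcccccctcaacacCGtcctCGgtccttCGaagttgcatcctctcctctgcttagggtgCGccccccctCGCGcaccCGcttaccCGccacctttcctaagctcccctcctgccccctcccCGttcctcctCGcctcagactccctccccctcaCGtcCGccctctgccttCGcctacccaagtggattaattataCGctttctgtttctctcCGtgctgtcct

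The single Igf2 probe (5050653) gave 4.86, 5.53, 4.86, 14.15, 5.91 and 4.75 on null arrays 1 to 6, against 5.00, 4.68, 4.98, 4.92, 4.69 and 4.72 on wildtype arrays 1 to 6. It was detected on null 2, null 4 and null 5 and on wildtype 1 and wildtype 3. Only null 4 was bright. Null 2 and null 5 also lay above every wildtype array, though near background, and null 1, 3 and 6 lay inside the wildtype range. The brighter H19 probe (3290056) gave 5.03, 4.90, 4.58, 14.05, 5.56 and 4.50 on null arrays, against 4.51, 4.68, 4.56, 4.52, 4.79 and 4.61 on wildtype arrays. It was detected on null 1, null 4 and null 5 and on 0 wildtype arrays. Null 1, 2 and 5 also lay above every wildtype array, though near background, and null 3 and 6 did not. The same array was bright for both genes. The second H19 probe (1440543), detected on null 4 alone, was at 12.76 there, against 4.42 to 4.66 on the other null arrays and 4.36 to 4.62 on the wildtype arrays.

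On null 4 the unprocessed bead intensity of the Igf2 probe was 11324.4 over 45 beads (SE 376), against at most 158.6 on the other 11 arrays. For the brighter H19 probe it was 10523.5 over 48 beads (SE 365), and for the second H19 probe 4695.9 over 38 beads (SE 176). The brightest probe of that array read 12242.3, so Igf2 and H19 stood near the upper end of the scale. After normalization Igf2 on null 4 was 8.24 log2 (302-fold) above the next array, null 5, and the brighter H19 probe was 8.49 log2 (361-fold) above null 5. The second H19 probe was at least 216-fold above the other arrays. Ranked by the distance of null 4 above every other array, these 3 probes took ranks 1, 2 and 3 of all 45281. The next was Rnase12, 5.92 log2 above the others and named here after its value was seen. Of all probes, 80 (0.177%) lay more than 2 above every other array on null 4.

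Over the groups, Igf2 averaged 6.68 ± 3.69 on null arrays and 4.83 ± 0.15 on wildtype arrays (SD, n = 6 each). Its change was 1.85 (SE 1.30, 95% interval -0.95 to 4.64, limma adjusted p = 0.47). H19 averaged 6.44 ± 3.75 on null arrays and 4.61 ± 0.11 on wildtype arrays (SD, n = 6 each). The limma change of H19 was 1.82 (SE 1.32, 95% interval -1.02 to 4.67, adjusted p = 0.49). Since no wildtype array detected it, the ratio of group means is only bounded, at least 2.83-fold by the readings. Those of null 2, 3 and 6, where H19 was not detected, are in its null mean as read. The null means of both genes rest on 1 array. Without null 4 the Igf2 null mean was 5.18 ± 0.51 (SD, n = 5) and its change 0.35 (SE 0.19, limma adjusted p = 0.34). Without null 4 the H19 change was 0.30 (SE 0.16, limma adjusted p = 0.33), and the null mean of 4.91 no longer exceeded the detection floor of the wildtype arrays, so no fold is given. Without null 3, 4 and 5 together the changes were 0.22 for Igf2 (limma adjusted p = 0.66) and 0.20 for H19 (limma adjusted p = 0.58). By BeadChip, Igf2 was at 3.38 on BeadChip 1, which held null 4, and 0.31 on BeadChip 2. H19 was at 3.45 on BeadChip 1 and 0.20 on BeadChip 2.

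Most neighbours of the 2 genes in chromosome order did not share their level on null 4. Between Dusp8 and Nadsyn1, 39 genes had a probe and 21 were tested, 15 of them no members, with 0 called. Of 12 tested genes on the list of neighbours, the unadjusted limma p was under 0.05 for 3, against 18.1% of all tested probes. On null 4 only Igf2, H19 and Tnni2 were more than 1 above every other array. Tnni2, a troponin subunit of fast skeletal muscle that lies on the H19 side, was at 11.31 on null 4, against 8.76 to 9.62 on the other null arrays and 8.18 to 8.66 on wildtype arrays. Its change was 1.07 (SE 0.36, limma adjusted p = 0.16). Mrpl23, a mitochondrial ribosomal protein gene between Tnni2 and H19, was at 12.73 on null 4 and between 12.52 and 12.80 on the other arrays. Igf2os, Ins2 and Th, which flank Igf2 on its other side, were not detected on null 4, at 4.40, 4.41 and 4.48. Tspan32, a tetraspanin gene of blood cells with the smallest p on that list, was at 0.42 (SE 0.13, limma adjusted p = 0.12).

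**Figure D2:**
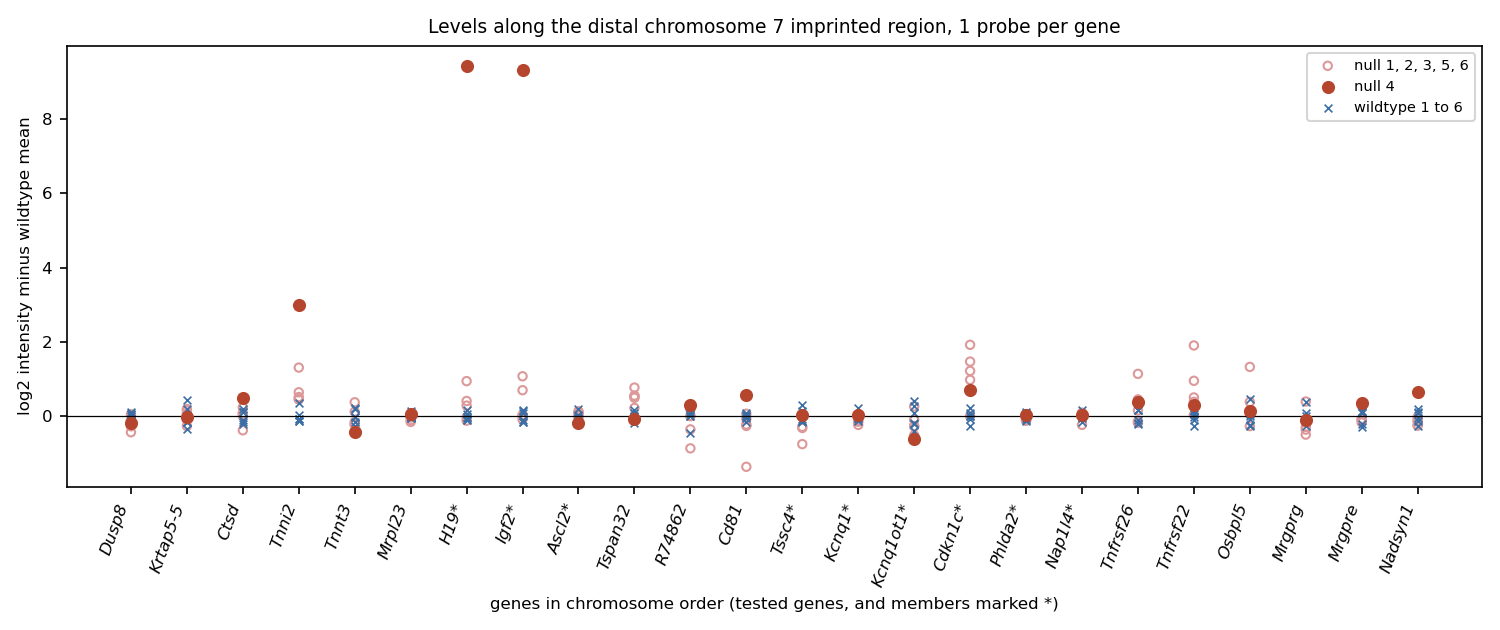
Log2 intensity minus the wildtype mean for tested genes and members (starred) between Dusp8 and Nadsyn1, in chromosome order, 1 probe per gene, with null 4 filled, the other null arrays open and wildtype arrays as crosses. H19 and Igf2 on null 4 are above 9, Tnni2 on null 4 is near 3, and Mrpl23 beside H19 and the members of the Kcnq1 domain show no such array.

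Genes of the insulin-like growth factor axis, the receptors, binding proteins and RNA-binding proteins that act with Igf2, were read from a list. Counts over lists take the brightest tested probe of each gene. Of 21 on the array 8 were tested, and 0 were higher and 0 lower by that probe, with 0 at an unadjusted limma p under 0.05 (median change 0.01, against -0.04 over all tested probes). Igf1r, the receptor that transmits the Igf2 signal, was at 0.43 (SE 0.22, limma adjusted p = 0.31) by its brighter probe. Its dimmer tested probe passed, at 5.25 ± 0.25 on null arrays and 4.67 ± 0.16 on wildtype arrays (SD, n = 6 each), a difference of 0.58 (SE 0.12, limma adjusted p = 0.036). That probe was detected on 5 null and 1 wildtype arrays. It met the detection filter through the null group, where it is higher, so its call is not used as support. The 2 probes of Igf1r differ in call. Igf2r, the receptor that takes Igf2 up for breakdown, was at 0.25 (SE 0.14, limma adjusted p = 0.35). The mean over the 8 tested genes was 0.67 above the wildtype mean on null 4, and between -0.21 and 0.18 on the other null arrays. A few members of this list, named after their values were seen, were also high on null 4. Igfbp4, which binds IGFs outside the cell, was at 8.58 on null 4, against 5.07 to 6.72 on the other null arrays and 6.15 to 6.57 on wildtype arrays. Igf2bp2, which binds Igf2 mRNA, was at 5.90 on null 4 and was detected on no other array.

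On null 4 each of the 8 marker lists lay within 0.54 of its wildtype mean. B-lineage markers were 0.54 above the wildtype mean on null 4, against -1.26 to -0.25 on the other null arrays. On null 4 the stromal list was at 0.25, the endothelial list at 0.19, the T and NK list at 0.24 and the plasmacytoid dendritic list at 0.32. The stem and progenitor list (-0.05), the erythroid and megakaryocyte list (-0.03) and the myeloid list (-0.49) were at or below the wildtype mean. These means cover tested genes only, detected on at least 3 of 12 arrays, so a marker detected on null 4 alone could not enter them. They therefore cannot show whether null 4 held a cell type that the other arrays lacked. The endothelial mean rests on 4 of 9 genes, and the stromal one on 2, Vcam1 and Cxcl12. The collagen genes Col1a1, Col1a2, Col3a1 and Col6a1 and the matrix genes Lum and Dcn, which define stromal cells, were detected on no array. Among single markers, Car2 of the erythroid and megakaryocyte list, a carbonic anhydrase, was at 9.58 on null 4, against at most 6.09 on the other null arrays and 5.48 on wildtype arrays. A probe of Eng, of the endothelial list, was at 7.84 on null 4 and at most 4.70 on the other arrays. That probe did not meet the filter and is in no mean. The part of any cell type in the Igf2 and H19 levels was not tested beyond these values.

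**Figure D3:**
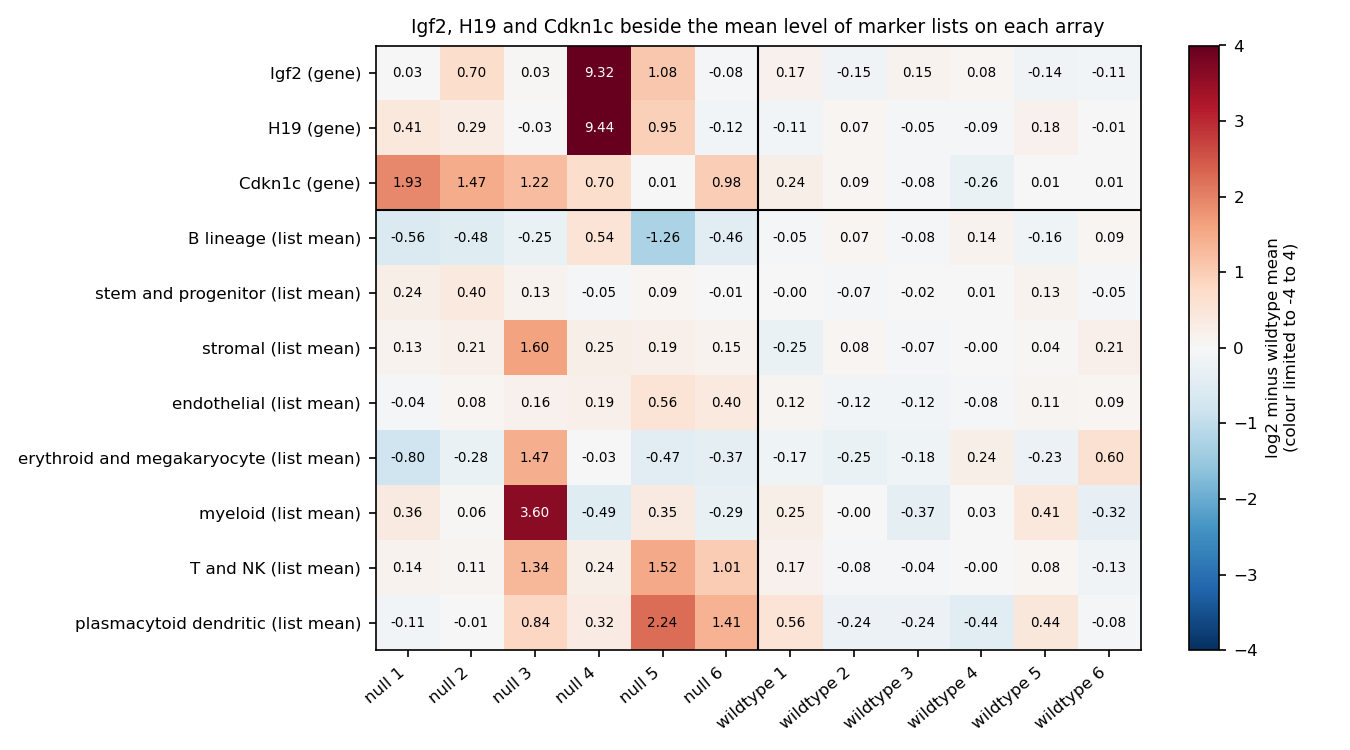
Log2 level minus the wildtype mean on each array (null 1 to 6 left, wildtype 1 to 6 right) for Igf2, H19 and Cdkn1c and for the mean of the tested genes of 8 marker lists, with values printed in the cells and the colour scale cut off at both ends. The Igf2 and H19 cells of null 4 read 9.32 and 9.44, the myeloid list is highest on null 3 (3.60), and the plasmacytoid dendritic list is highest on null 5 (2.24).

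Cdkn1c encodes p57, which binds cyclin and kinase complexes and slows entry into the cell cycle, and it was the member with the smallest p. Its single probe (4570451) was detected on all 12 arrays. It gave 9.17, 8.72, 8.47, 7.94, 7.25 and 8.23 on null arrays 1 to 6, against 7.48, 7.34, 7.17, 6.98, 7.25 and 7.26 on wildtype arrays 1 to 6. Null arrays 1, 2, 3, 4 and 6 were above every wildtype array, and null 5 lay inside the wildtype range. At least 5 null arrays lay above all wildtype arrays for 3.75% of tested probes. Cdkn1c averaged 8.30 ± 0.66 on null arrays and 7.25 ± 0.17 on wildtype arrays (SD, n = 6 each). The change was 1.05, or 2.07-fold (SE 0.25, 95% interval 0.52 to 1.58), with a limma adjusted p of 0.058, just short of the threshold of 0.05. A change of at least 1 upwards was seen for 1.35% of tested probes.

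By BeadChip the Cdkn1c change was larger on BeadChip 2, though the difference itself did not pass the test. On BeadChip 2 the null arrays 1, 2 and 3 were between 8.47 and 9.17, against 6.98 to 7.26 on wildtype arrays 4, 5 and 6. There the change was 1.62 (limma adjusted p = 0.021). On BeadChip 1 the null arrays 4, 5 and 6 were between 7.25 and 8.23, against 7.17 to 7.48 on wildtype arrays 1, 2 and 3, and the ranges overlapped. There the change was 0.48 (limma adjusted p = 0.43). The difference between the BeadChips, BeadChip 2 minus BeadChip 1, was 1.14 (SE 0.34). Its limma adjusted p was 0.85 over all tested probes, of which 0 passed. With BeadChip as a block the change of 1.05 had a limma adjusted p of 0.042.

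**Figure D4:**
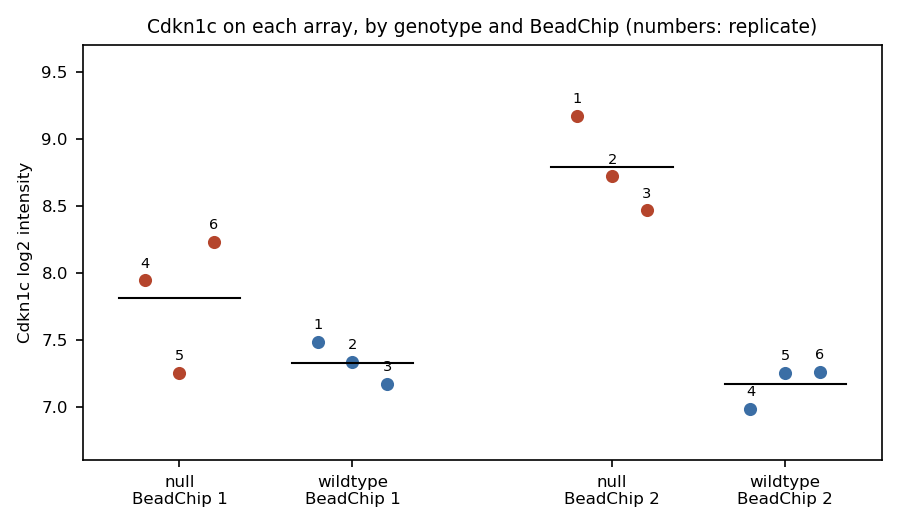
Cdkn1c log2 intensity on each array by genotype and BeadChip, null left of wildtype, with replicate numbers beside the points and bars at the mean of 3. All 3 null arrays of BeadChip 2 are above its wildtype arrays, and on BeadChip 1 null 5 lies among the wildtype arrays.

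Whether Cdkn1c passed depended on the arrays and the model used. Without null 5 the change was 1.26 (limma adjusted p = 0.0042), and without null 3, 4 and 5 it was 1.46 (limma adjusted p = 0.0019). Without null 4 alone it was 1.12 (limma adjusted p = 0.062). Array weights gave 1.30 (limma adjusted p = 0.0018). The change was upward under each of the 26 alternatives, between 0.48 and 1.62, and passed under 6 of them. All of them refit the same arrays or a part of them, and the authors' values repeat the reported fit. Their shared direction is therefore no separate support. Null 5 was also the array where the B-lineage list was lowest, 1.26 below the wildtype mean, and where the plasmacytoid dendritic list (2.24) and the T and NK list (1.52) were highest. The part of these differences in the Cdkn1c level was not tested.

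**Figure D5:**
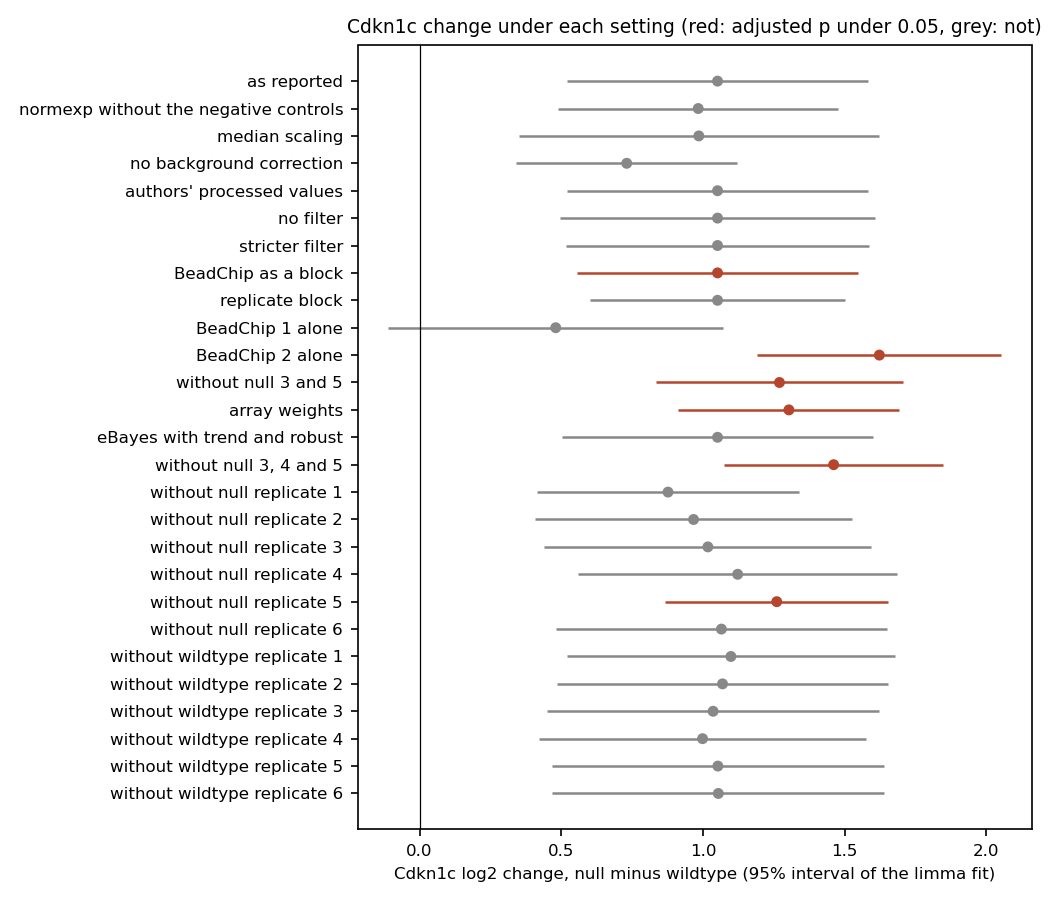
Cdkn1c log2 change, null minus wildtype, with its 95% interval, as reported and under each of 26 alternatives, in red where the limma adjusted p was under 0.05. Each point is above 0, and the interval reaches below 0 for BeadChip 1 alone.

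The relatives and partners of Cdkn1c in the cell cycle, the other inhibitors, the kinases and the cyclins, were largely detected. Of 17 on the array 16 were tested, 1 was higher and 0 lower, 5 had an unadjusted limma p under 0.05 (18.1% of all tested probes did), and the median change was -0.20. Ccnd1, the D-type cyclin that p57 and its relatives bind, rose to 11.05 ± 0.27 on null arrays, against 9.87 ± 0.16 on wildtype arrays (SD, n = 6 each), a change of 1.18 (SE 0.12, limma adjusted p = 0.000293). Its groups did not overlap, with 10.69 to 11.40 on null arrays and 9.76 to 10.19 on wildtype arrays. Cdkn1a, the p21 inhibitor of the same family and named after its value was seen, was at 1.09 (SE 0.29, limma adjusted p = 0.080). It was at 9.46 on null 4, against 7.49 to 8.04 on the other null arrays and 6.62 to 7.46 on wildtype arrays.

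Kcnq1ot1, the noncoding RNA that silences the Kcnq1 domain in cis on the paternal allele, was read from 1 probe under the symbol Tssc8. The RefSeq window around its start, chr7:143296498-143296797 on the minus strand of GRCm38.p6, is printed because its promoter lies in the control region of the domain. Capitals mark CCAAT, a motif that NF-Y binds, searched as CCAAT on this strand and as ATTGG for the opposite one. The window holds 3 such matches, a number that 3.37% of all windows reach, while 37.4% have at least 1. It also holds 9 CG, a count that 45.8% of windows reach. A match describes the letters only.
Kcnq1ot1 promoter window: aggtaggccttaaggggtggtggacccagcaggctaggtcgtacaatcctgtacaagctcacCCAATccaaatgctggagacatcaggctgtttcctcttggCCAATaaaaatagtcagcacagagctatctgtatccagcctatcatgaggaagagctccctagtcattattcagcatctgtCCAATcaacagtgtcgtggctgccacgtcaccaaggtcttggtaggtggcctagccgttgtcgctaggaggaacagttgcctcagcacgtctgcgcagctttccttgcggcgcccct

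The Tssc8 probe was detected on all 12 arrays at low levels. It gave 5.36, 5.11, 5.89, 5.01, 5.35 and 5.53 on null arrays 1 to 6, against 5.22, 5.44, 5.41, 5.72, 5.91 and 6.03 on wildtype arrays 1 to 6. The groups overlapped. The means were 5.37 ± 0.31 on null arrays and 5.62 ± 0.31 on wildtype arrays (SD, n = 6 each), a change of -0.24 (SE 0.17, 95% interval -0.60 to 0.11, limma adjusted p = 0.45). On BeadChip 1 it was -0.06 and on BeadChip 2 -0.43. Cdkn1c, the nearest tested gene beside it, was higher on null arrays by the values above, and neither passed.

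Tssc4, a gene of the Kcnq1 domain whose product takes part in assembling spliceosomal particles in human cells, had 2 probes, both detected on all 12 arrays. The first (3400253) gave 7.93, 7.57, 7.60, 7.91, 7.14 and 7.86 on null arrays, against 8.20, 8.04, 7.76, 7.81, 7.77 and 7.72 on wildtype arrays. The second (650075) gave 6.97, 7.22, 6.69, 7.16, 6.55 and 6.72 on null arrays, against 6.88, 7.11, 6.61, 6.87, 6.59 and 6.81 on wildtype arrays. Both probes overlapped between the genotypes, and both were lowest on null 5. For the first, 3 null arrays lay below the lowest wildtype array. The changes had opposite signs, -0.21 (SE 0.14, limma adjusted p = 0.43) and 0.07 (SE 0.13, limma adjusted p = 0.80).

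Nap1l4, a histone chaperone gene at the Phlda2 end of the Kcnq1 domain, had the narrowest ranges among the members detected on all 12 arrays. Its brighter probe (2940072) gave 12.20, 12.13, 12.18, 12.13, 11.87 and 12.17 on null arrays, against 11.94, 12.14, 12.12, 12.27, 12.06 and 12.08 on wildtype arrays. The groups overlapped, and only null 5 lay below the lowest wildtype array. The change was 0.01 (SE 0.08, 95% interval -0.16 to 0.19, limma adjusted p = 0.95). Without null 3, 4 and 5 the changes were 0.06 for Nap1l4, -0.10 and 0.16 for the Tssc4 probes and -0.29 for Kcnq1ot1, and none passed. The second Nap1l4 probe was detected on no array, at 4.34 to 4.86 on null arrays and 4.38 to 4.49 on wildtype arrays.

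The other members of the Kcnq1 domain were not detected on any array, so only a bound on their level is available. The 2 probes of Kcnq1, a voltage-gated potassium channel subunit, were at 4.35 to 4.63 on null arrays and 4.39 to 4.82 on wildtype arrays. The probe of Phlda2, a pleckstrin-homology protein that limits placental growth, was at 4.37 to 4.55 on null arrays and 4.37 to 4.60 on wildtype arrays. The 3 probes of Ascl2, a basic helix-loop-helix factor of trophoblast and gut stem cells, were at 4.24 to 4.62 on null arrays and 4.25 to 4.68 on wildtype arrays. Null 4 was not bright for any of them. RefSeq windows around the starts of Ascl2, Tssc4 and Phlda2 hold 23, 23 and 26 CG, against a median of 7 over all windows.

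Lists of genes related to these members had few calls. Of 5 tested channel subunits and partners related to Kcnq1, 0 were higher and 0 lower, with 0 at an unadjusted p under 0.05 (median -0.07). Kcnq5 was at -0.46 (SE 0.22, limma adjusted p = 0.29). Of 6 tested relatives and partners of Ascl2, Phlda2 and Nap1l4, 0 were higher and 1 was lower (median -0.04). The unadjusted limma p was under 0.05 for 3 of the 6, against 18.1% of all tested probes. The lower one was Lgr5, a receptor that marks gut stem cells. It fell to 6.78 ± 0.46 on null arrays, against 7.70 ± 0.20 on wildtype arrays (SD, n = 6 each), a change of -0.92 (SE 0.19, limma adjusted p = 0.034), with no overlap between the groups. Tcf12, a partner of helix-loop-helix factors, was at -0.28 (SE 0.10, limma adjusted p = 0.16) by its brighter probe. Its dimmer tested probe passed (limma adjusted p = 0.028), at 4.37 to 4.85 on null arrays, where it was detected on 0, and 4.99 to 5.46 on wildtype arrays, where it was detected on 6. It met the detection filter through the wildtype group only, so its call is not used as support.

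Proteins that read or keep imprints were also taken as a list, since they act on the control regions of both domains. Of 21 on the array 15 were tested, and 0 were higher and 0 lower in limma. Of the 15, 8 had an unadjusted limma p under 0.05, against 18.1% of all tested probes. The median change was -0.24, against -0.04 over all tested probes. Relative to the wildtype mean, the list mean was lowest on null 5 (-0.52), null 3 (-0.30) and null 4 (-0.18). It was -0.12 on null 6, while null 1 (-0.06) and null 2 (-0.07) lay inside the wildtype range of -0.09 to 0.09. Stag2, a cohesin subunit, was at -0.27 (SE 0.08, limma adjusted p = 0.13). Uhrf1, which brings the maintenance methyltransferase to hemimethylated DNA, was at -0.39 (SE 0.13, limma adjusted p = 0.15). In the wider network of imprinted growth genes 5 of 12 genes were tested. The 2 that passed were measured on null arrays only, so they met the detection filter through that group and their count supports nothing about the list. These were Ndn, detected on 6 null and 0 wildtype arrays, and Peg3, detected on 5 null and 0 wildtype arrays. On null 4 Ndn was at 9.36, against 7.74 to 9.23 on the other null arrays, and Peg3 was at 5.45, inside the 4.89 to 6.03 of the other null arrays.

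As a description of which genes shared the pattern of each member, deviations from the genotype means were correlated over the 12 arrays. Igf2 was most like H19 (r = 0.995), then Tpm1 (0.993) and St5 (0.987), and H19 was most like Igf2, St5 (0.988) and Tpm1 (0.986). These values rest on null 4, where all 4 genes were above every other array. Without that array Igf2 correlated at 0.684 with H19, at 0.689 with Tpm1 and at 0.201 with St5, and H19 correlated at 0.246 with Tpm1 and at 0.102 with St5. Cdkn1c was most like Dlg7 (0.971), Pdzd11 (0.954) and Tbp (0.946). The genotype difference is taken out of these correlations. The changes of those genes were -0.34, -0.06 and -0.23, against 1.05 for Cdkn1c, so they did not share its rise. Tssc4 was most like Cops7b (0.945), Taok1 (0.934) and Ube2m (0.922), and Nap1l4 was most like Ube2h (0.972), Akap10 (0.933) and Rev1 (0.918). The arrays share samples, normalization and the marker differences given above, and no member of the Kcnq1 domain had another member among its 3 closest genes.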

How the data were processed

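Unnormalized intensity (the mean over a probe's beads), the signal SD over beads, a count of beads (13 to 71 per member probe) and a detection score as a fraction were exported with GenomeStudio 1.8.0, per the file headers. The detection p-value of the other deposited table is 1 minus that fraction. A table of log2 values processed by the authors was deposited as well, for which the submitters' processing notes list R 2.15.1, limma 3.12.1 and BeadStudio. No genome build is named there or in the file headers. Here neqc (limma 3.58.1, R 4.3.3) corrected the intensities by normexp with 936 negative controls, added an offset of 16, quantile normalized them and took log2. They differed from the authors' log2 values by at most 5.0e-09. Probes with a detection p under 0.05 on at least 3 of 12 arrays (17607) were fitted with lmFit and eBayes, without covariates, and adjusted by Benjamini-Hochberg over all of them, with adjusted p under 0.05 called. The fit was tested on simulated data.

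The members, the gene lists and the tests were chosen with earlier results of these data known. Named beside the members are list genes at adjusted p under 0.05, or else the 2 of smallest p, by the brightest tested probe, and the 3 genes most alike. 1 gene that this rule names is not reported here. Igfbp4, Igf2bp2, the dimmer Igf1r probe, Cdkn1a, Tcf12, Car2, Eng, the collagen and matrix markers, Rnase12 and the genes next to Igf2 and H19 were named after their values were seen. A probe detected on no array of a group gives a bound, set against the lowest detected level of each array. Alternatives were other background corrections and scalings, other filters, a block for BeadChip or for replicate number, array weights, single BeadChips, a trended robust prior and arrays left out; leaving out null 3, 4 and 5 together, the BeadChip difference and the Tssc8 probe were added after seeing the data. The number of arrays limits the precision. Replicate numbers of the 2 genotypes were not used to pair the samples.

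Gene order, the older symbol Tssc8 and the printed sequences come from RefSeq tables for GRCm38.p6. Of the members, 5 have a promoter window there, 8 windows in all. Probe sequences were not used here.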

Additional observations from a re-analysis of the deposited data

Results flagged for a closer look

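Each of the 14 member probes was examined in each genotype for an array far from the other 5, 28 groups in all, and 6 groups held one. Chance gives such an array in about 1 group in 20. The gap to the nearest array was set against the range of the group. In the null group, null 4 lay far above the others for Igf2 (14.15), for the brighter H19 probe (14.05) and for the second H19 probe (12.76). These 3 are 1 array seen through 2 neighbouring genes. In the wildtype group, wildtype 2 was high for the second H19 probe at 4.62 and wildtype 3 was high for 1 of the 3 Ascl2 probes at 4.66, both not detected on those arrays. Null 5 was low for Nap1l4 at 11.87, against 12.13 to 12.20 on the other null arrays.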

How the results depend on the processing

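The number of probes called over the whole array moved from 215 to 92 with median scaling (59 higher, 33 lower, against 94 and 121), 101 with no filter, 104 with the replicate block, 12 on BeadChip 1 alone, 43 on BeadChip 2 alone and 380 with array weights. Leaving out 1 array gave 68 to 319. Of the members, 1 probe, Cdkn1c, was called with BeadChip as a block (1.05), on BeadChip 2 alone (1.62), without null 3 and 5 (1.27, limma adjusted p = 0.011), without null 3, 4 and 5 (1.46) and with array weights (1.30). Leaving out 1 array gave 0 to 1 called member probes and a Cdkn1c change of 0.88 to 1.26, called without null 5 only. With the replicate block, Cdkn1c was at 1.05 (limma adjusted p = 0.068) and 0 member probes were called. Same-numbered arrays of the 2 genotypes had deviations that correlated between -0.29 and 0.08, and 0 of 6 null arrays matched their own number best. Each such pair was split over the 2 BeadChips, so these values cannot show whether the numbers pair the samples. The numbers were not used as pairs. Nap1l4 changed sign with median scaling (-0.088), on BeadChip 1 alone (-0.010) and without null 1, null 3 or wildtype 1, leaving out 1 array giving -0.020 to 0.060. The second Tssc4 probe changed sign on BeadChip 1 alone (-0.056). The cause was not tested. Of 128 runs of the tested member probes other than Cdkn1c, 0 were called, the lowest adjusted p being 0.30. The stricter filter left out Igf2 and H19. Kcnq1, Phlda2 and Ascl2 were too dim to be tested.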

Other observations

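B-lineage markers and lists of 7 other cell types were read on the same arrays, and 0 genes of these 8 lists passed in either direction (limma). The unadjusted limma p was under 0.05 for 18.1% of all tested probes. Among tested list genes it was so for 3 of 11 B-lineage, 1 of 4 stem and progenitor and 1 of 4 endothelial genes. The same held for 7 of 10 T and NK and 4 of 8 plasmacytoid dendritic genes, and for 0 genes of the other 3 lists. The ranges of the list means were wider among null arrays. Of 18 myeloid markers, 13 to 17 were detected on null arrays and 12 to 15 on wildtype arrays, and the list mean was 7.09 to 11.18 on null arrays and 7.21 to 7.99 on wildtype arrays. Of 15 T and NK markers, 6 to 10 were detected on null arrays and 5 to 9 on wildtype arrays, with list means of 5.83 to 7.25 on null arrays and 5.60 to 5.89 on wildtype arrays. The 10 plasmacytoid dendritic markers gave list means of 9.04 to 11.39 on null arrays and 8.70 to 9.71 on wildtype arrays. The B-lineage list mean was 7.84 to 9.65 on null arrays and 8.94 to 9.24 on wildtype arrays.

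By the smallest p in each list, Thy1, a T-cell surface glycoprotein, was at 1.64 (SE 0.40, limma adjusted p = 0.063) and Cd2 at 0.47 (SE 0.13, limma adjusted p = 0.092). Il7r, the interleukin 7 receptor of B-cell progenitors, was at -0.99 (SE 0.28, limma adjusted p = 0.10), and Rag1, a recombinase subunit, at -0.92 (SE 0.28, limma adjusted p = 0.12). On null 4 both lay near wildtype, Il7r at 8.86 and Rag1 at 8.43, against at most 7.74 and 7.60 on the other null arrays. Meis1, a homeobox factor of blood stem cells, was at 0.62 (SE 0.16, limma adjusted p = 0.077), and Slamf1 at -0.18. Bst2 was at 1.25 and Klk1 at 1.53, Vcam1 at 0.71 and Cxcl12 at 0.13, Cdh5 at 0.94 and Kdr at 0.10, Hbb-b1 at -0.72 and Car2 at 0.88, and Ngp at 0.96 and Csf1r at 0.15.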
